A study of Mus musculus with 472 samples.

Results

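Transcripts of the mitochondrial genome were described in single retinal ganglion cells (RGCs), the neurons whose axons form the optic nerve. The genes were all columns of the deposited table whose symbol starts with mt-, which gave 37 of 55450 genes: 13 protein genes, 2 ribosomal RNA (rRNA) genes and 22 transfer RNA (tRNA) genes. All cells of the series are used, from C57BL/6J mice aged 7 to 9 weeks, and the labels name no treatment, so they form 1 group. Each cell was patched in a whole retina, tested with blue and green light and emptied through the pipette. Its RNA was copied to cDNA by Smart-seq2, which covers whole transcripts and tags no single molecules, and read as 150 bp pairs. The labels name no animal, so all cells together stand for 1 sample: nothing was tested between cells, and correlations describe these cells only. Of the 12 ganglion cell markers listed, at least 3 were positive in all cells but 6.

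Values are counts per 1000000 gene counts of the cell (CPM), without the ERCC spike-in RNAs, which were added in known amounts. A gene was called positive at 10 CPM or more, and the number of positive genes served as the measure of genes detected. The median cell had 5184792.5 gene counts, and cells ran from 58907 to 13004880. By their library names the cells came from 5 sequencing runs: run A holds 49.6% of the cells, run B 98 cells, run C 62, run D 59 and run E 19. The median cell had 5554.5 positive genes, and the median was lowest in run D, 3024.

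The mitochondrial genome is a small circle transcribed from both strands into long precursors, which are cut largely at the tRNAs that lie between the other genes. Its protein genes all encode core subunits of the respiratory chain (complexes I, III and IV) and of ATP synthase, and its rRNAs build the mitochondrial ribosome. The other subunits come from the nucleus. Mitochondrial rRNAs and most mitochondrial mRNAs carry short poly(A) tails. RGCs are known for many mitochondria in the unmyelinated part of their axon, and some inherited optic neuropathies arise from changes in mitochondrial complex I genes.

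A nuclear copy of part of this genome bears on the counts, so sequences are shown first. They come from the GENCODE mouse release 21 transcripts on the mm10 build and are given 5′ to 3′ on the coding strand of each gene. At 80% identity or more over at least 100 bases, 29 nuclear genes matched a mitochondrial gene. Of these, 7 had a mean of 1 CPM or more, and 19 had no count in any cell. The 7 lie together on the minus strand of chr1:24611535-24616197 and are annotated as unprocessed pseudogenes. The start of mt-Co3 (chrM:8607-9390), a core subunit of complex IV, is shown because its copy Gm28437 (chr1:24613189-24613971) had the same 783 bases. The start codon is in capitals.
mt-Co3: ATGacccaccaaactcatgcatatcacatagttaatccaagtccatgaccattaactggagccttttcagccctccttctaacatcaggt
Gm28437: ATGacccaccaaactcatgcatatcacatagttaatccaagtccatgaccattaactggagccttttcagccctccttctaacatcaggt

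The copies of mt-Co2, mt-Atp6, mt-Co3 and mt-Nd4l matched without a mismatch over all but the last 1 to 3 bases of the mitochondrial gene. The copy of mt-Nd4 matched over the first 876 of 1378 bases. In 2 pairs a single base differed. The copy of mt-Co1, Gm29216 (chr1:24615706-24616197), covered the last 483 bases with 1 difference, A1066T, where the mitochondrial base stands first and positions count from 1 at the start of the mitochondrial gene. The copy of mt-Nd3, Gm28438 (chr1:24612775-24613119), differed by T3C. The windows below have the differing base in capitals and start at chrM:6390 for mt-Co1 and at chrM:9459 for mt-Nd3.
mt-Co1: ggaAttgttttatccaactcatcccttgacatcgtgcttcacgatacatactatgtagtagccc
Gm29216: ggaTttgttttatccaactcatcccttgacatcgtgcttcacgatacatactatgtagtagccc
mt-Nd3: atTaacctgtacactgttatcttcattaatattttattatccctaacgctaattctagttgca
Gm28438: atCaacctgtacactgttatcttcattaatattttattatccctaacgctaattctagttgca

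Neighbouring mitochondrial genes also share bases. The end of mt-Atp8 and the start of mt-Atp6 overlap by 43 bases at chrM:7927-7969, and mt-Nd4l and mt-Nd4 overlap by 7 bases at chrM:10167-10173. The overlaps are in capitals, and a fragment inside them cannot be given to 1 gene by its sequence.
mt-Atp8 to mt-Atp6: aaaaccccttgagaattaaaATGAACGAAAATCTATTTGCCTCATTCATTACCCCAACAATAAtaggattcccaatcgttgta
mt-Nd4l to mt-Nd4: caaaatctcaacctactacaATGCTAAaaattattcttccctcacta

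Mitochondrial genes took a small part of the counts of most cells. Their share of gene counts had a median of 0.345%, with quartiles of 0.174% and 0.728%. The lowest share was 0.00454%, in a run D cell with 1287 positive genes, and the highest was 15.1%, in a run A cell with 4773 positive genes. The share was above 1% in 79 cells, above 2% in 32 and above 5% in 5. The run medians were lowest in B (0.270%) and highest in D (0.578%), with A at 0.340%, C at 0.351% and E at 0.379%, and the ranges of the runs overlapped. Protein genes alone had a median share of 0.210% and the 2 rRNA genes 0.129%. For scale, the overlapping nuclear rRNA loci CT010467.1 and AY036118 took a median of 17.1%.

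Of the 37 genes, 15 had a count in some cell and 10 were positive in at least 50% of cells, where 7.76% of all genes were. These 10 were both rRNA genes and 8 of the 13 protein genes. The plot of the 15 genes by cell shows levels that span several orders of magnitude within 1 gene.

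**Figure D1:**
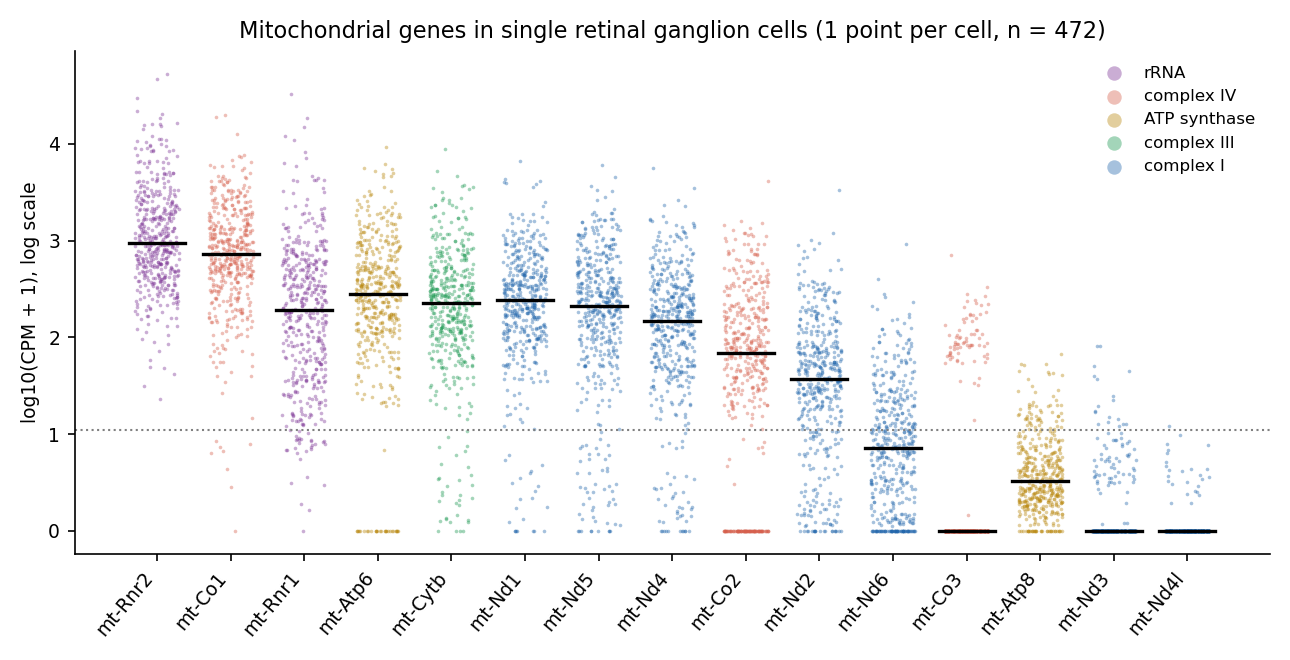
Levels of the 15 mitochondrial genes with a count, on a log10(CPM + 1) axis, with 1 point per cell, a black line at the median, a dotted line at 10 CPM, and colours for the complex each gene belongs to. mt-Rnr2 has the highest median, 943 CPM, and the lines of mt-Co3, mt-Nd3 and mt-Nd4l lie at 0.

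The large-subunit rRNA mt-Rnr2 (chrM:1094-2675) was positive in every cell, with a median of 943 CPM and a range from 22.3 to 53071 CPM. The small-subunit rRNA mt-Rnr1 (chrM:70-1024) had a median of 190 CPM, from 0 in 1 cell to 32467 CPM, and was positive in 93.4% of cells (95% Clopper-Pearson interval 90.8% to 95.5%; such intervals cover counting error only). The run medians of mt-Rnr1 lay apart, from 31.4 CPM (B) over 127.3 (D), 265.5 (A) and 410.1 (C) to 502 CPM (E), while those of mt-Rnr2 lay between 864 and 1892 CPM.

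Among the complex IV genes, mt-Co1 (chrM:5328-6872), the catalytic subunit, was the protein gene with the highest median, 733 CPM, from 0 in 1 cell to 19622 CPM, and was positive in 98.3% of cells. mt-Co2 (chrM:7013-7696), which takes electrons from cytochrome c, had a median of 67.8 CPM, from 0 in 99 cells to 4094 CPM, and was positive in 77.3%. mt-Co3 was at 0 in 83.7% of cells, and its highest level was 702 CPM. The complex III gene mt-Cytb (chrM:14145-15288) had a median of 224.04 CPM, from 0 to 8891 CPM, and was positive in 93.01%.

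Of the complex I genes, which encode membrane-arm subunits, mt-Nd1 had a median of 239.3 CPM, mt-Nd5 212.2 CPM and mt-Nd4 146.8 CPM, each positive in 89.2% to 95.3% of cells. mt-Nd2 was lower, with a median of 35.7 CPM, and was positive in 75.8%. mt-Nd6 (chrM:13552-14070), the only protein gene coded on the other strand, had a median of 6.19 CPM, from 0 in 68 cells to 927 CPM, and was positive in 37.3%. No source used here says whether counting used the strand, so antisense RNA at mt-Nd6 cannot be told apart from its mRNA. mt-Nd3 was positive in 3.81% of cells and mt-Nd4l in 0.212%, which is 1 cell.

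The ATP synthase genes, which encode membrane subunits of the enzyme, gave unequal counts. mt-Atp6 (chrM:7927-8607) had a median of 281.9 CPM, from 0 in 28 cells to 9274 CPM, and was positive in 93.9%. mt-Atp8 (chrM:7766-7969) had a median of 2.29 CPM, a highest level of 65.9 CPM and was positive in 13.1%. Of the 5 protein genes with medians under 10 CPM, mt-Atp8, mt-Nd4l and mt-Nd3 are the shortest of all 13, and the others were mt-Co3 and mt-Nd6.

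Per kilobase of gene, median levels were 596 CPM for mt-Rnr2, 474 for mt-Co1, 413.9 for mt-Atp6, 250.1 for mt-Nd1, 198.6 for mt-Rnr1 and 195.8 for mt-Cytb. They were 116.3 CPM per kilobase for mt-Nd5, 106.6 for mt-Nd4, 99.1 for mt-Co2, 34.4 for mt-Nd2, 11.9 for mt-Nd6 and 11.2 for mt-Atp8. mt-Rnr1 and mt-Cytb, and likewise mt-Nd5, mt-Nd4 and mt-Co2, are neighbours in this order and lay closer together than the quartiles of any of them. The order leaves out counts listed under the nuclear copies. With these added, medians per kilobase were 542.6 CPM for mt-Co1, 498.7 for mt-Atp6, 125.5 for mt-Co2, 117.1 for mt-Co3 and 108.8 for mt-Nd4. mt-Co2 and mt-Co3 then lay above mt-Nd5, so their places depend on how counts were assigned. Within the 87.5% of cells with at least 100 counts of mt-Nd5, mt-Nd6 lay below mt-Nd5 per length by a median log2 ratio of -3.36, with quartiles of -4.63 and -2.18.

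All 22 tRNA genes were at 0 in every cell. The tRNA genes are 59 to 75 bp long, 14 on the strand of most protein genes and 8 on the other. The shortest, mt-Ts2 (chrM:11613-11671, a serine tRNA), and the longest, mt-Tl1 (chrM:2676-2750, a leucine tRNA), are shown for their length against 150 bp reads.
mt-Ts2: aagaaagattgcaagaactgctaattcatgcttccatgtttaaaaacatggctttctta
mt-Tl1: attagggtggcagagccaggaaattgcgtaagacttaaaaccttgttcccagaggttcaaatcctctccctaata

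Short genes were without counts in the whole table. Of 1026 genes whose longest transcript has at most 75 bp, 0 had a count in any cell, and the same held for 1369 genes of 76 to 99 bp and for 3527 genes from 100 bp to under 150 bp. From 150 bp to under 200 bp, 72 of 897 genes had a count, and over all lengths 29946 of 55450 genes had. The zeros of the tRNA genes therefore lie among zeros of all genes of that length, and are no measure of tRNA levels in the cells.

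Most counts of the mt-Co3 and mt-Nd4l pairs were listed under the nuclear copy. Among the cells with mt-Co3 at 0, the copy Gm28437 had a count in 96.7%, with a median of 67.3 CPM. In the 77 cells with mt-Co3 above 0 the copy was higher, with a count in 69 and a median of 213.5 CPM. Gm10222, the copy of mt-Nd4l, was low in both kinds of cell, with medians of 6.83 CPM where mt-Nd4l was at 0 and 19.5 CPM in the 26 cells where it was above 0. Of the cells with at least 20 counts in the pair (88.8% of all cells), 81.9% had all of them on the copy, 1.67% all on mt-Co3, and 16.5% on both. Of 320 such cells for mt-Nd4l and Gm10222, 92.5% had all counts on the copy. With the copy added, mt-Co3 had a median of 91.8 CPM and was positive in 86.9% of cells, against 16.1% without it. mt-Nd4l with its copy had a median of 7.41 CPM and was positive in 39.2%.

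Other pairs were divided in other ways. For mt-Co2 and Gm28661, of 430 cells 46.3% had all counts on the mitochondrial gene, 13.5% all on the copy, and 40.2% on both. For mt-Atp6 and Gm10925, 28.2% of such cells had all counts on mt-Atp6 and 4.52% all on the copy. mt-Co1 and Gm29216 both had counts in 97.6% of the cells, with a median of 89.4% of the pair's counts on mt-Co1. For mt-Nd4, 89.1% had all counts on the mitochondrial gene and 0 cells had all on the copy Gm28439. For mt-Nd3 and Gm28438, 24.8% of all cells had enough counts, and of these 42.7% had them all on the copy.

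The division differed between runs. All counts were on the copy of mt-Co3 in 74% (D) to 91.7% (C) of cells, and on the copy of mt-Nd4l in 81.6% (D) to 100% (E). For mt-Co2 this share ran from 6.12% (D) to 32.7% (C), and for mt-Nd3 from 20% (D, 20 cells) to 80% (B, 20 cells), which in run B was above the 78.4% of mt-Co3. Since the sequences of mt-Co2, mt-Atp6, mt-Co3 and mt-Nd4l equal those of their copies over nearly their whole length, counts of these pairs cannot be assigned to either locus with certainty. The level of each of these 4 genes alone is uncertain, and the sum of the pair is the firmer value. mt-Nd3 differs from its copy by 1 base near its start, so its level alone is uncertain too. With the copy it was positive in 10.2% of cells, against 3.81% without it. Fragments inside the parts that mt-Nd4 and mt-Co1 share with their copies meet the same limit. With all 7 copies added, the mitochondrial share had a median of 0.371%.

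**Figure D2:**
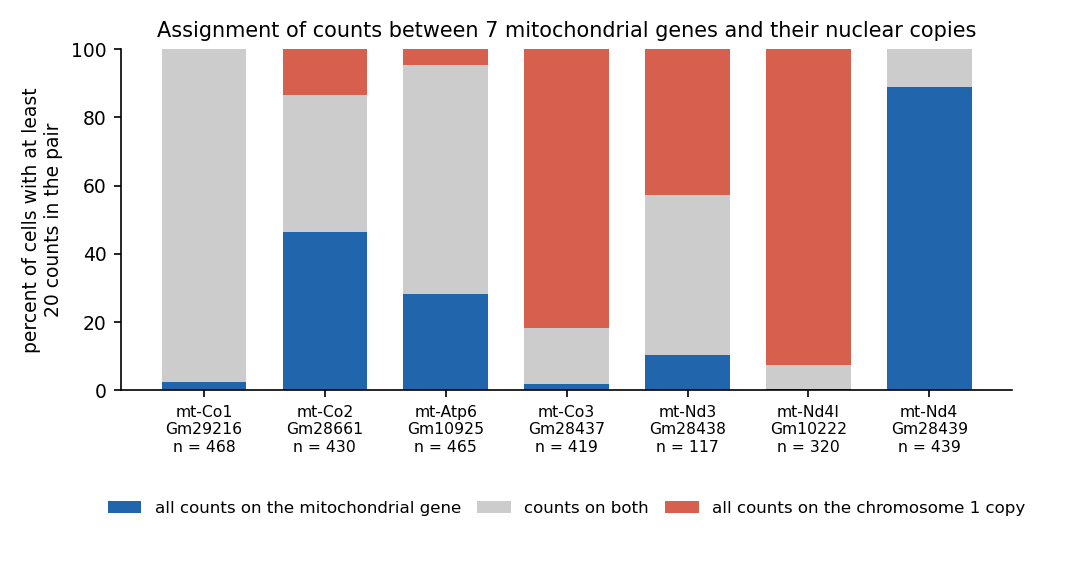
Division of counts between 7 mitochondrial genes and their copies on chromosome 1, as percent of the cells with at least 20 counts in the pair (n under each bar). Blue means all counts on the mitochondrial gene, red all on the copy, grey on both: mt-Co3 (81.9%) and mt-Nd4l (92.5%) are mostly red, and mt-Nd4 (89.1%) is mostly blue.

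The balance of the 2 rRNAs differed between blocks of library names, also within a sequencing run. This was noticed after the data were seen, and the bounds of the name blocks were set then. The ratio of mt-Rnr2 to mt-Rnr1 counts had a median of 3.32 over all cells, from 0.109 to 364.7. It had a median of 24.7 in 120 libraries named R84 to R349, from 5.15 to 364.7, and of 34.7 in 90 libraries named T, from 10.4 to 144.3. In the libraries named R356 and on (53.6% of all), it had a median of 1.96, from 0.109 to 6.87. The first and the third block overlapped only between 5.15 and 6.87, while the first and the second overlapped widely. The ratio was above 8 in 95.8% of the first, in all 90 of the second and in 0 of the third block, and in 0 of the few libraries of other names (5 named R57 to R65 and 4 others).

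The blocks cross the runs. Within run A, the ratio was above 8 in 67 of 69 libraries named R84 to R349 and in 0 of those named R356 and on, which make up 34.7% of all cells. Within run B, it was above 8 in 90 of 90 libraries named T and in 0 of 8 named R356 and on. Run D had 48 of 51 libraries of the R84 to R349 block above 8. Of the 2 rRNAs, mt-Rnr1 differed more, with medians of 71.05, 24.8 and 421.1 CPM in the 3 blocks (R84 to R349, T, and R356 on). mt-Rnr2 had medians of 1892, 868 and 808 CPM there.

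A nuclear RNA separated in the same way. Rn7s1, an RNA of the signal recognition particle that directs proteins to the endoplasmic reticulum, was picked as the lowest of 11149 genes ranked on their rho with the ratio (-0.76), so its values are a description. It had medians of 3.73 CPM (highest 65.8) and 3.13 CPM (highest 142.4) in the R84 to R349 and T blocks, against 3474 CPM (lowest 157.9) from R356 on. The ranges of the first 2 blocks did not overlap that of the third. Nuclear rRNA loci took medians of 30.7% and 27.6% against 12.8% of counts, and positive genes had medians of 4899, 5297.5 and 5838. The labels do not say what sets the blocks apart, and its part in the rRNA levels was not tested.

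**Figure D3:**
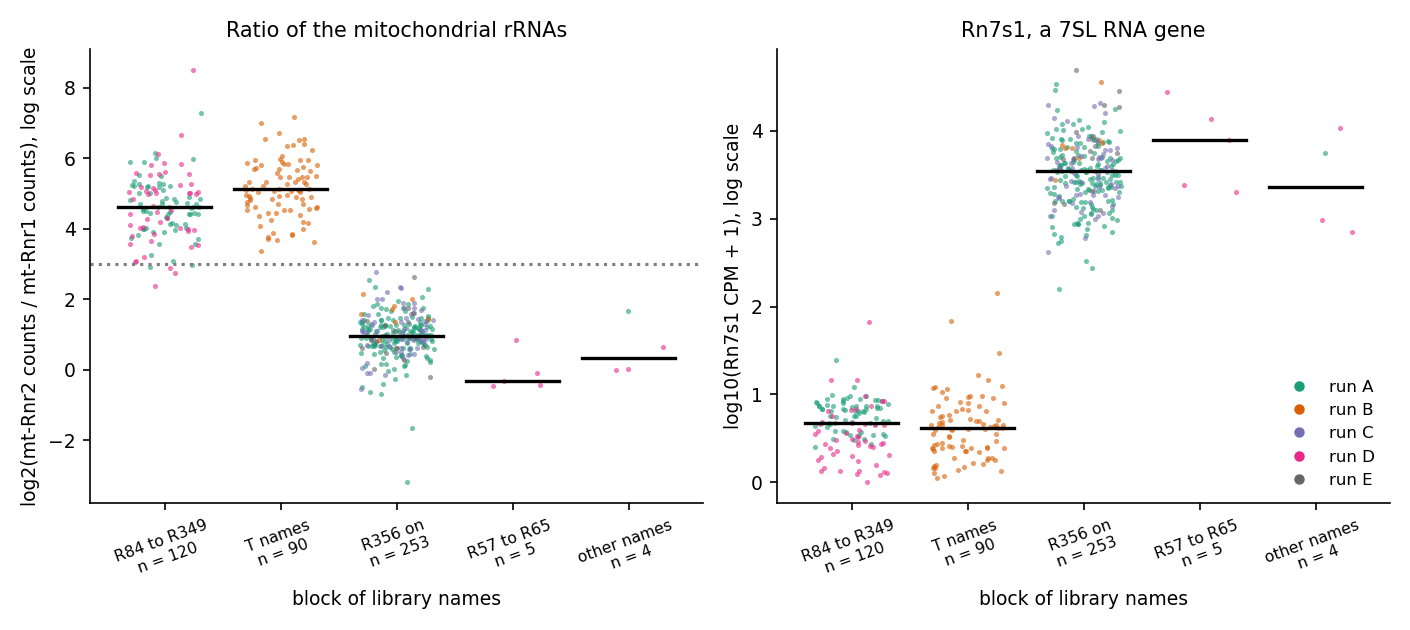
Left, log2 ratio of mt-Rnr2 to mt-Rnr1 counts per cell by block of library names, with a dotted line at an 8-fold ratio; right, Rn7s1 as log10(CPM + 1) in the same cells. Points are coloured by sequencing run and black lines are medians: 43.4% of cells lie above the dotted line, all in the R84 to R349 and T blocks, and the Rn7s1 levels of these blocks (at most 142.4 CPM) lie below those from R356 on (at least 157.9 CPM).

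All protein genes together took a median of 61.4% of the mitochondrial counts. With the protein genes split by complex, the rRNAs took the largest part. Over all cells but 1, which had under 100 mitochondrial counts, their median share was 38.6%, followed by complex IV genes with 24.7%, complex I genes with 19.7%, ATP synthase genes with 8.30% and mt-Cytb with 6.58%. mt-Nd6 made up a median of 0.162%. With the nuclear copies counted in, the rRNA share was 35.7% and the complex IV share 28.4%. Pooled over all counts, rRNA made up 42.9%. Run medians of the rRNA share lay between 37.3% (A) and 44.4% (D), and the highest cell had 97.3%.

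The mitochondrial share had a weak rank correlation with the number of genes detected. Spearman's rho of summed mitochondrial CPM with positive genes was -0.10 over all cells (Pearson's r of log2 values -0.11, and -0.12 without the 2 cells farthest from the median). By run it was -0.17, -0.037, 0.18, -0.098 and -0.072 by order from A to E, so its sign was not the same in all runs. Each cell is 1 library, and all levels of a cell share its total. The protein genes gave -0.035 and the rRNA genes -0.18. With the cells in 4 groups of equal size by positive genes, the median share was 0.496% in the group with the fewest (at most 4070), then 0.327% and 0.268%, and 0.352% in the group with the most (6577 to 8937). The medians thus did not run in 1 direction, which a rank correlation does not show.

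Over all genes the relation was mostly positive. Of 11149 genes positive in at least 10% of cells, 7021 had a rho of 0.3 or higher with the number of positive genes (63% of those tested), and the median was 0.32. Of the 13 mitochondrial genes among them, 0 did, with a median of 0.017 and a range from -0.20 (mt-Rnr2) to 0.087 (mt-Nd5). The number of positive genes is itself counted over these genes. Level bears on this comparison too: the other genes positive in at least 90% of cells had a median rho of 0.23, and 24.9% of them reached 0.3, where the 7 mitochondrial genes in that range had a median of 0.017.

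The spike-in share likewise had a weak rank correlation with the mitochondrial share. ERCC RNAs took a median of 0.738% of all counts, from 0.0158% to 31.1%. Spearman's rho of summed mitochondrial CPM with this share was 0.082, and by run it was 0.078, -0.016, -0.22, 0.35 and -0.23, so run D alone gave a value above 0.3. In 4 groups of equal size from lowest to highest ERCC share, the median mitochondrial share was 0.370%, 0.288%, 0.302% and 0.513%. Over the 11149 genes the median rho was -0.21, and 7.75% were at -0.3 or lower. The 13 mitochondrial genes had a median of 0.0015 and ran from -0.053 (mt-Co1) to 0.15 (mt-Rnr1), with 0 at or beyond 0.3 on either side.

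**Figure D4:**
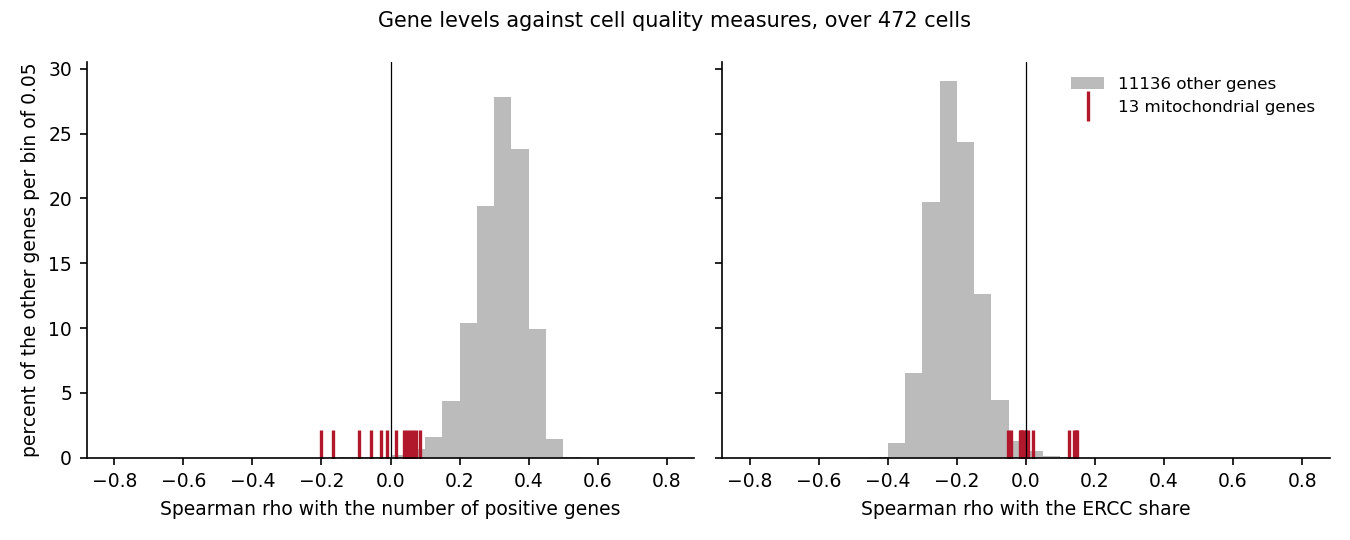
Distribution of Spearman's rho over all cells between gene levels and the number of positive genes (left) or the ERCC share (right): grey bars, percent of the other genes per bin of 0.05; red ticks, the 13 mitochondrial genes tested. The red ticks lie between -0.20 and 0.087 on the left, where the grey bars centre near 0.32, and between -0.053 and 0.15 on the right, where they centre near -0.21.

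By rank correlation, the makeup of the mitochondrial counts moved with genes detected more than their amount did. This relation was added after the data were seen. The rRNA share of the mitochondrial counts had a rho of -0.40 with positive genes (r -0.42, and -0.40 without the 2 farthest cells). It was negative in every run, from -0.29 (E) to -0.57 (D), and in each of the 3 large name blocks, from -0.29 to -0.61. The median share was 46.9% in the group with the fewest positive genes and 40.7%, 35.9% and 34.4% in the next groups. With the ERCC share rho was 0.31, positive in every run from 0.19 (A) to 0.54 (D).

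**Figure D5:**
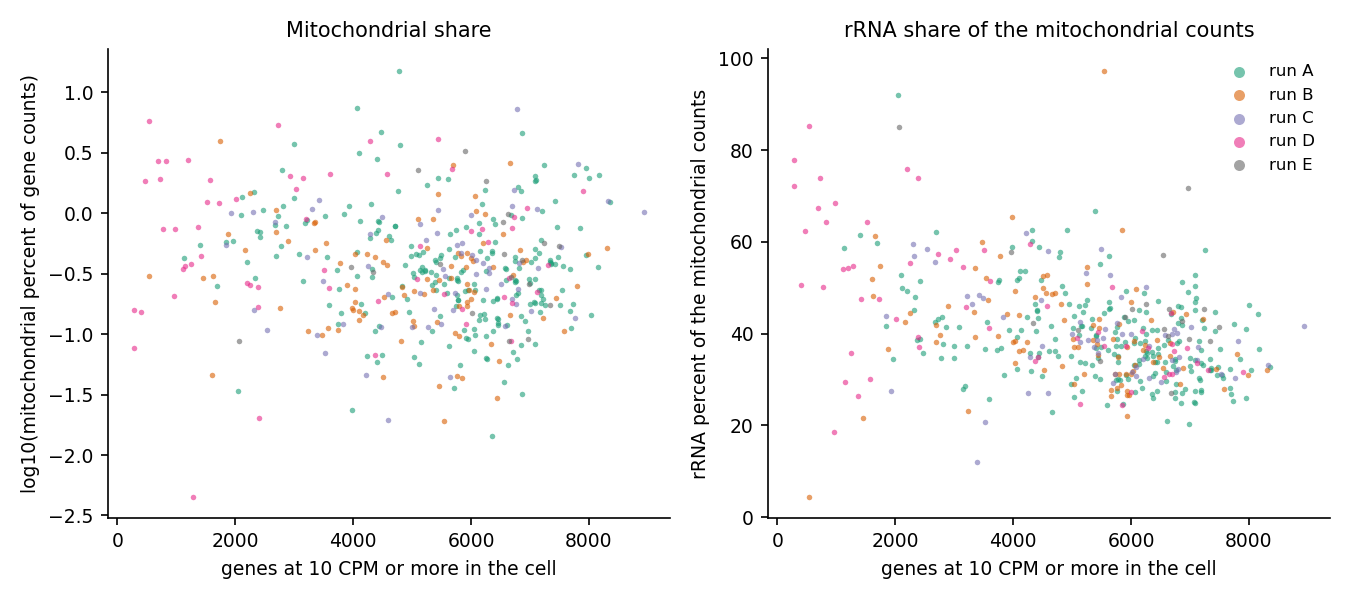
Mitochondrial percent of gene counts on a log10 axis (left) and rRNA percent of the mitochondrial counts (right) against the number of genes at 10 CPM or more, 1 point per cell, coloured by run. The left cloud has a rho of -0.10, with medians of 0.496% in the cells with the fewest genes and 0.352% in those with the most. The right one falls from a median of 46.9% in the cells with the fewest genes to 34.4% in those with the most.

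The mitochondrial genes varied together from cell to cell. Among the 10 genes positive in at least 50% of cells, the 45 pairs had a median rho of 0.70 over all cells. The highest was 0.83, for mt-Rnr2 with mt-Atp6, and the lowest 0.26, for mt-Rnr1 with mt-Co2. The 2 rRNAs, which are neighbours on the genome, had a rho of 0.52, below the median of the pairs. The genes mt-Atp8 and mt-Atp6, which share bases and so may share counts, had 0.86.

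Nuclear genes of the same complexes followed the mitochondrial protein genes weakly. Against summed mitochondrial protein CPM, 66 nuclear subunit genes of the respiratory chain and ATP synthase had a median rho of 0.066, where all 11149 genes had -0.028. Of the 66, 51 had a positive sign, where 36.5% of all genes had one, and 0 reached 0.3, where 0.144% of the 11138 genes other than these mitochondrial genes did. The highest were Ndufa4 (0.26), Cox4i1 (0.25), Cox6a1 (0.25) and Atp5b (0.22), the last the catalytic subunit of ATP synthase. The lowest were Ndufs3 (-0.10), Cycs (-0.064), Ndufs4 (-0.063) and Atp5j (-0.040). Their summed CPM had a median of 9489, and its rho was 0.15, from 0.0051 (D) to 0.28 (C) by run.

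Genes that copy, transcribe, process and translate the mitochondrial genome had a median rho of -0.029 (31 of 32 tested), close to the -0.028 of all genes. Of the 31, 10 were positive, near the 36.5% of all genes, and 0 were at or beyond 0.3 on either side. The lowest were Fastk (-0.24), Mrpl4 (-0.20), Ssbp1 (-0.13) and Mterf3 (-0.13), and the highest Polg2 (0.10), Hsd17b10 (0.098), Mterf4 (0.096) and Slirp (0.050). Tfam, which packages and activates mitochondrial DNA, had -0.071, and the polymerase gene Polrmt had 0.015. Their summed CPM had a rho of -0.21, negative in all 5 runs from -0.065 (B) to -0.26 (A). The 5 biogenesis regulators had a median of -0.012, and Ppargc1a, the coactivator known for driving mitochondrial biogenesis, had 0.064.

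The genes most like the mitochondrial protein genes, among 4295 positive in at least 50% of cells, included 3 nuclear copies. Gm29216 had a rho of 0.82, Gm28437 0.76 and Gm10925 0.36, and as copies that share sequence with the members they are no independent genes here. The others were Cst3 (0.45), a protease inhibitor, Apoe (0.35) and Clu (0.34), lipid-binding secreted proteins, Bsg (0.33), Cpe (0.32), Tspan3 (0.31) and Glul (0.30), glutamine synthetase. The rho of Cst3 was positive in every run, from 0.30 (B) to 0.66 (E). At the other end were Snhg11 (-0.37), 2610005L07Rik (-0.36), A230050P20Rik (-0.35), Rsrp1 (-0.34) and Dennd6b (-0.33), and 0.126% of genes were at -0.3 or lower.

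Apoe, Clu and Glul stand on the list of Müller glia markers, and some lists of other retinal cell markers moved with the mitochondrial share as well. The summed CPM of the 8 Müller glia markers had a rho of 0.42 with mitochondrial CPM, from 0.26 (C) to 0.48 (A) by run. All 8 had a positive rho with the mitochondrial protein genes, from 0.22 (Sox9) to 0.35 (Apoe). Apart from the broadly expressed Apoe, Glul, Clu and Dkk3, the markers were often absent, with Aqp4 at 0 in 75.8% of cells, Sox9 in 69.7%, Slc1a3 in 55.3% and Rlbp1 in 28.8%. At least 3 of the 8 were positive in 79.4% of cells, whose median mitochondrial share was 0.372% against 0.232% in the other 97. Their summed CPM ran from 135.8 to 48248 in the first and from 3.57 to 4845 in the second.

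Cells with at least 3 of 7 cone markers (54 cells) had a median share of 0.812% against 0.308% in the others, and the median was higher in each of the 5 runs. In run A it was 0.969% (24 cells) against 0.323% (210 cells), and in run B 0.407% (9) against 0.254% (89). Their summed cone marker CPM ran from 42.3 to 13465, against at most 848.5 in the others. Over all cells this sum had a rho of 0.20 with the mitochondrial share, from 0.058 (B) to 0.30 (A) by run. Cells with at least 3 cone markers also had more positive genes in runs A to D, but not in E. The medians were 6912.5 against 5764.5 in run A and 6535 against 6635 in run E. Each of the 7 cone markers was often absent, from Pde6h at 0 in 65.5% of all cells to Pde6c in 85.8%. For at least 3 of 8 rod markers the medians were 0.380% (57.4% of cells) and 0.281% (the rest), and summed rod marker CPM had a rho of 0.26, from 0.059 (C) to 0.59 (E) by run. For microglia markers they were 0.794% (14 cells) and 0.339% (the rest), and for bipolar markers 0.409% (30.9% of cells) and 0.316% (the rest). Summed microglia marker CPM had a rho of 0.15, from -0.25 (E) to 0.27 (C) by run. Summed bipolar marker CPM had 0.12, from -0.0055 (B) to 0.22 (A). Summed vessel marker CPM had a rho of 0.22, from 0.066 (B) to 0.31 (D) by run, but its median was 0 and no cell had 3 positive vessel markers. Summed erythrocyte marker CPM had a rho of 0.080. Summed amacrine marker CPM had a rho of -0.083, from -0.20 (B) to 0.29 (E) by run, and summed astrocyte marker CPM had -0.022. Cells with at least 3 amacrine markers had a median of 0.376% against 0.320% in the rest, but in run B 0.232% against 0.304%, and the 42 cells with at least 3 astrocyte markers had 0.527% against 0.339%. The summed CPM of the 12 ganglion cell markers had a rho of -0.13, which by run was -0.14 (A), 0.071 (B), -0.036 (C), -0.26 (D) and -0.69 (E, 19 cells). In the 32 cells above 2% mitochondrial share, a median of 9 ganglion markers was positive, against 10 in the rest. Markers of other cells were higher in these 32 cells. Median summed rod marker CPM was 3080 against 247.02 in the rest, and median summed Müller glia marker CPM 2605 against 944. At least 3 rod markers were positive in 81.3% of them against 55.7%, and the median of positive genes was 4672 against 5625. The part of RNA from neighbouring cells in the mitochondrial share was not tested.

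Ganglion cell classes, taken from class markers at 10 CPM, differed little against the spread within each. The cells with Spp1 and Kcng4, genes of alpha RGCs (22.5% of all cells), had a median share of 0.383%, with quartiles of 0.223% and 0.792%. The 75 cells with Eomes or Opn4, genes of the light-sensing ganglion cells, had 0.366%, 79 with Tbr1 had 0.354%, 36 with Foxp2 had 0.338% and 50 with Col25a1 and Cdh6 had 0.319%. The lowest medians were 0.295% in 59 cells with Irx3 and no Eomes, and 0.278% in 110 cells with Mmp9 and Htr1d, whose quartiles were 0.170% and 0.435%. The quartile ranges of all 7 classes overlapped, and a cell can be in more than 1 class. The order changed between runs: cells with Spp1 and Kcng4 had 0.407% in run A (82 cells) and 0.236% in run B (8 cells), against 0.295% and 0.281% in the other cells of these runs.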

How the data were processed

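The table deposited by the authors holds expected counts for 472 cells (run A 234, B 98, C 62, D 59, E 19), estimates that can have decimals: 1.37% of the gene values were not whole, and those of mt-Co1 were not whole in 96.0% of cells. STAR 2.7.0 and mm10 are named in the submitters' processing notes. The sources used here do not give the quantification tool, the annotation release or the handling of reads that fit several loci. Depth ran from 58907 to 13004880 gene counts per cell, with 7 cells under 1000000, and the intervals given cover counting error only.

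Estimated counts were rounded to whole numbers and scaled to CPM over 55450 genes without the 92 ERCC RNAs. Correlations used log2(CPM + 1). Positions, lengths and sequences came from GENCODE mouse release 21. Nuclear copies were found with BLAST 2.17.0 (expect value 1e-10). Software was scipy 1.17.1, numpy 2.4.6, pandas 2.3.3 and matplotlib 3.10.9 in Python 3.11.15. No cell was left out and doublets were not searched for, as cells were aspirated singly. Most cell numbers over 100 are given as percent of cells.

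The members and all gene lists were chosen with earlier results of these data known. The text names all protein and rRNA members, and of the tRNA genes only the shortest and the longest. It names the 4 highest and 4 lowest genes of the respiratory chain list and of the mitochondrial expression list. Tfam, Polrmt and Ppargc1a are named for their role, the last as the only named biogenesis regulator. Also named are the 10 highest and 5 lowest of the likeness ranking, and the copies at 1 CPM or more. The copy limits (80% identity, 100 bases, 20 counts in a pair), the library-name blocks, the 8-fold mark, the ranking of genes on the rRNA ratio, the length classes, the comparison with genes positive in at least 90% of cells, the marker values by run and the rRNA share as a relation were chosen after seeing the data. Relations were computed with 6 cell measures, and none was tested. The scan over genes was tested on simulated data (11149 genes, 472 cells). A change of 1 log2 unit per SD of positive genes was recovered in 200 of 200 genes. A change of 0.5 was recovered in 47 of 200, with 0 calls among 10949 unchanged genes. In the deposited data, 7021 of 11149 genes reached a rho of 0.3 with positive genes, which are counted over these genes. How specific the scan is there was not tested. Alternatives were other denominators, cell filters, thresholds, pseudocounts, thinning to 1000000 counts (seed 1), runs left out and copies added.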

Additional observations from a re-analysis of the deposited data

How the results depend on the processing

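A median share was held to its 95% order-statistic interval (0.301% to 0.380%), a rho to a shift of 0.1 and a count to 1.5 times, limits set after seeing the data. The median mitochondrial share of 0.345% left that interval without the nuclear rRNA loci in the denominator (0.442%), with protein genes only (0.210%), with rRNA genes only (0.129%), and in libraries named R84 to R349 alone (0.439%) or T alone (0.247%). The other 12 of 17 alternatives, with runs left out, copies added, values as deposited and thinning (7 cells too shallow) among them, stayed inside. The rho with genes detected, -0.10, ran from -0.18 to 0.019 over 20 alternatives and moved only in the 84.5% of cells with at least 3000 positive genes (0.019). The rho with the ERCC share, 0.082, moved to -0.057 in those cells, to 0.22 in libraries R84 to R349 and to -0.062 in libraries T. The name-block alternatives and those with copies in the 2 counts below were added after seeing the data. The number of genes positive in at least 50% of cells, 10, ran from 8 (100 CPM) to 12 (1 CPM), and was 11 with the copies added. The pooled rRNA share of 42.9% was held to a binomial interval that takes every count as independent. That interval leaves out the spread between cells, whose quartiles were 32.9% and 46.1%. All 8 alternatives left it, also one that rounds to the same 42.9%, so it cannot tell small shifts from large ones. The share was 38.6% as the median over cells with at least 100 or 1000 mitochondrial counts. It was 43.9%, 43.5%, 43.2%, 41.3% and 42.9% without runs A to E in turn, and 39.96% with copies added. The class medians at 100 CPM stayed inside the intervals of the sets at 10 CPM, but their order changed. At 100 CPM the highest was 0.465% (Foxp2, 15 cells) and the lowest 0.236% (Mmp9 and Htr1d, 51 cells). Cells with Eomes or Opn4 then had 0.292% (25 cells). No paired analysis was possible because all cells form 1 group.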

Other observations

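Other small RNAs and a few protein genes differed between the blocks of library names along with the mt-Rnr2 to mt-Rnr1 ratio. They are named from a ranking of 11149 genes made after the data were seen. Rpph1, the RNA of ribonuclease P, had a rho of -0.72 with the ratio and medians of 0 CPM in libraries R84 to R349 and T against 8.26 CPM from R356 on. Lars2, the mitochondrial leucyl-tRNA synthetase, had -0.68, with medians of 264.4 and 360.8 CPM against 1613 CPM. Eef1a2, a translation elongation factor of neurons and muscle, had 0.45, with medians of 68.1 and 68.9 CPM against 5.34 CPM, and Rrp7a had 0.42, with 103.5 and 109.8 CPM against 0.573 CPM. The Rrp7a difference was not alike in the runs: in run A its medians were 133.96 CPM in 69 libraries R84 to R349 and 0.479 CPM from R356 on, but in run D the 51 libraries R84 to R349 had a median of 1.47 CPM.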
